A study of Mus musculus with 28 samples.

Results

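Imprinted growth genes are genes with roles in growth that are read from one parental chromosome, and 10 of them are described here in mouse muscle: H19, Igf2, Dlk1, Meg3, Rian, Mirg, Rtl1, Peg3, Cdkn1c and Grb10. They are 10 of the 55359 genes found in both count tables of the study, and were taken by name. They count as chosen by their measured values, the CPM in each of these mice and every contrast between groups, so their values are a description. Where a member is said to be called in the fit of all genes, this gives its place in that fit and supports nothing, and no p is given for it. RNA-seq counts came from the tibialis anterior (TA), a fast muscle of the lower leg, of 28 mice aged 8 weeks, with 4 mice in each of 7 groups. The paper's cohort table gives the strain as C57BL/6N for both cohorts. The Dnm2 cohort holds WT mice given placebo, WT mice given tamoxifen, Dnm2 S619L/+ mice given placebo and Dnm2 S619L/+ mice given tamoxifen, and the mutants are heterozygous for a point mutation of dynamin 2, a GTPase of membrane remodelling. The Bin1 cohort holds WT mice given placebo, Bin1 mck-/- mice given placebo and Bin1 mck-/- mice given tamoxifen, and has no WT mice given tamoxifen. Bin1, a membrane-curving partner of dynamin 2, is deleted in Bin1 mck-/- mice by Cre under the muscle creatine kinase promoter, so other cells of the muscle keep the gene. The labels do not say which alleles the WT mice of that cohort carry. Tamoxifen, which binds the estrogen receptor and acts for or against it depending on the tissue, was given in the diet, and the labels give no dose or length of treatment. The study looks for the mechanisms behind these centronuclear myopathy models and for genes that a treatment could aim at.

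Imprinting marks the maternal and paternal copies of some genes differently during the making of eggs and sperm, so that in most tissues only one of the copies is read. H19, Meg3, Rian, Mirg, Cdkn1c and, in most tissues, Grb10 are read from the maternal copy, while Igf2, Dlk1, Rtl1 and Peg3 are read from the paternal copy. Many of these genes are active in the embryo and fall after birth, and H19 stays high in skeletal muscle. Counts per gene do not separate the parental copies, so nothing here measures imprinting itself.

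Reads on genes numbered 15586333 to 109710886 in a mouse of the Dnm2 cohort and 24671835 to 35136327 in a mouse of the Bin1 cohort. Levels are given as CPM, counts scaled by library size with the TMM method of edgeR. Mitochondrial genes held 19.6% to 25.7% of the reads in WT placebo mice of the Dnm2 cohort, 16.5% to 18.98% in WT tamoxifen mice, 13.6% to 17.1% in Dnm2 S619L/+ placebo mice and 14.7% to 16.5% in Dnm2 S619L/+ tamoxifen mice. TMM factors were 0.812 to 0.8997 in those WT placebo mice and 0.963 to 1.16 in the other groups. WT placebo libraries of that cohort thus differ in composition, which cannot be told apart from the group. Taking mitochondrial genes out of the library sizes changed the call of no member. It hardly moved the calls of all genes either (3383 to 3388 between genotypes with placebo in that cohort), so it does not test composition. Library input and fragmentation time differ between the cohorts (300 ng and 2 min for the Dnm2 cohort, 350 ng and 8 min for the Bin1 cohort), so cohort and protocol cannot be told apart and all contrasts stay within a cohort. The deleted gene Bin1 (ENSMUSG00000024381) had 539.5 ± 15.7 CPM in WT mice of the Bin1 cohort (mean ± SD, n = 4) and 56.1 ± 5.10 in Bin1 mck-/- placebo mice. This is a log2 fold change of −3.26 ± 0.13 (edgeR adjusted p = 7.11e-10), and each of the 4 mutants lay below each of the 4 WT mice. With tamoxifen the Bin1 level in these mutants was 40.9 ± 6.16 CPM, a log2 fold change of −0.46 ± 0.12 against placebo. In the Dnm2 cohort Bin1 had 499.6 ± 9.29 CPM in WT placebo and 404 ± 70.1 in WT tamoxifen mice. Dnm2 S619L/+ mice had 874 ± 157 CPM of Bin1 with placebo and 615 ± 104 with tamoxifen. Dnm2 (ENSMUSG00000033335), whose point mutation counts per gene do not show, had 67.5 ± 4.64 CPM in Dnm2 S619L/+ placebo mice and 63.0 ± 1.44 in WT placebo mice of its cohort. Markers of muscle fibers are high in every library. Summed over 8 fiber genes they ranged from 137357 to 162119 CPM in WT placebo mice of the Dnm2 cohort and from 104887 to 126584 in WT tamoxifen mice, and from 149934 to 183245 in WT mice of the Bin1 cohort. The lowest sum of all 28 mice was 93470.0 CPM, and Acta1, skeletal muscle actin, was the most abundant of the 8 genes by its mean over each cohort. In bulk RNA, fewer cells of a type and less RNA per cell cannot be told apart.

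The labels give no sex. Xist, the noncoding RNA made from an inactive X chromosome, had 124 to 182 CPM in 10 of the 16 mice of the Dnm2 cohort and at most 0.966 CPM in the other 6. Genes of the Y chromosome summed to 140.1 to 176 CPM in those 6 mice and to at most 0.135 CPM in the 10. Mice with Xist reads were WT placebo mice 1 and 4, WT tamoxifen mice 1 and 2, Dnm2 S619L/+ placebo mice 1 and 4, and all 4 Dnm2 S619L/+ tamoxifen mice. The contrast of tamoxifen in Dnm2 S619L/+ mice therefore sets 4 mice with Xist reads against 2 with and 2 without. All 12 mice of the Bin1 cohort had Xist reads (70.8 to 115 CPM).

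Called means an adjusted p under 0.05 in the quasi-likelihood test of edgeR, with the Benjamini-Hochberg method, over 15439 genes tested in the Dnm2 cohort and 14841 in the Bin1 cohort. Of the 10 members 9 were tested in each cohort, and Rtl1 was not, with 0 to 6 reads per mouse. The counts of members called are given beside the share of all genes called, and nothing is read from them. Between Dnm2 S619L/+ and WT placebo mice, 1 of 9 members was called, Peg3, which was higher, where 21.9% of all genes were called (12.1% higher and 9.81% lower). With tamoxifen in WT mice, 4 of 9 were called, all higher (Meg3, Rian, Mirg and Grb10), where 27.7% of all genes were called (15.8% higher and 11.9% lower). With tamoxifen in Dnm2 S619L/+ mice, 6 of 9 were called, all higher (Igf2, Meg3, Rian, Mirg, Cdkn1c and Grb10), where 8.26% of all genes were called (5.22% higher and 3.04% lower). The difference between these 2 tamoxifen effects, the interaction, was called for 0 of 9 members by edgeR, where 0.259% of all genes were called (0.0324% higher and 0.227% lower). An unadjusted p under 0.05 was held by 2 of the 9 members and by 2090 of all 15439 genes. DESeq2 called 1 member there, Cdkn1c, and 1.93% of all genes. Between Bin1 mck-/- and WT placebo mice, 0 of 9 were called by edgeR, where 2.61% of all genes were called (1.99% higher and 0.627% lower). An unadjusted p under 0.05 was held by 2 of the 9 members and by 2995 of all 14841 genes. Here DESeq2 called 1 member, Mirg, and 7.23% of all genes. With tamoxifen in Bin1 mck-/- mice, 5 of 9 were called, where 3.13% of all genes were called (1.52% higher and 1.61% lower). Meg3, Rian, Mirg and Cdkn1c were the 4 called higher there, and H19 was called lower. The median log2 fold change of the 9 members in these 6 contrasts, in the same order, was −0.48, 0.80, 1.45, 0.46, −0.35 and 0.84, and that of all genes lay between −0.04 and 0.02. In that order 5629, 6219, 3927, 2090, 2995 and 3068 of all genes tested had an unadjusted p under 0.05. Later counts at an unadjusted p stand beside these numbers, and nothing is read from them.

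**Figure D1:**
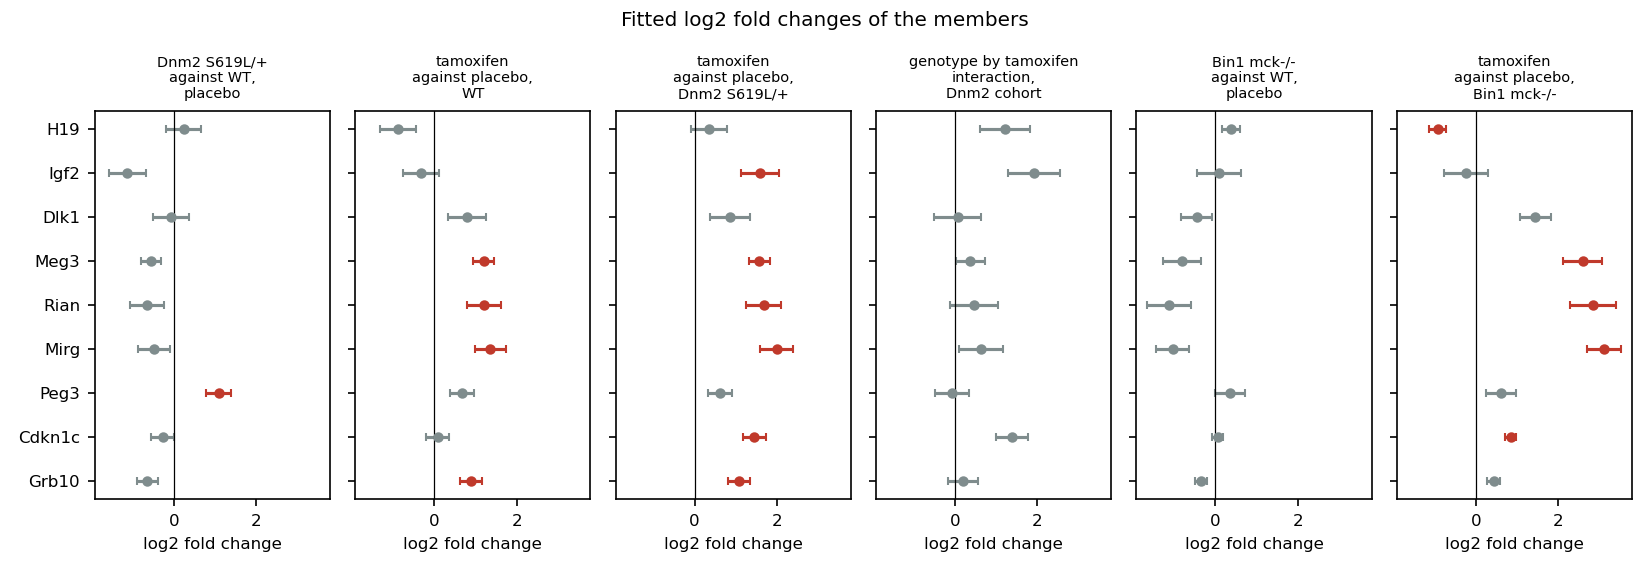
Log2 fold changes (points) and their standard errors (bars) of the 9 tested members in 6 contrasts, with called members in red. Meg3, Rian and Mirg lie above 0 in all 3 contrasts of tamoxifen against placebo, and H19 lies below 0 in WT and Bin1 mck-/- mice only.

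The Dlk1-Meg3 domain on mouse chromosome 12 makes a chain of noncoding RNAs from the maternal copy. Meg3 (ENSMUSG00000021268) is a long noncoding RNA, Rian (ENSMUSG00000097451) carries small nucleolar RNAs and microRNAs, and Mirg (ENSMUSG00000097391) carries a large cluster of microRNAs. Meg3 had 87.4, 58.2, 58.9 and 139.6 CPM in WT placebo mice 1 to 4 of the Dnm2 cohort and 144, 229, 195 and 222 in WT tamoxifen mice. Every WT tamoxifen mouse lay above every WT placebo mouse, with placebo mouse 4 and tamoxifen mouse 1 nearest to each other. The means were 86.0 ± 38.2 and 198 ± 38.6 CPM (SD, n = 4), a log2 fold change of 1.20 ± 0.25 (SE). In Dnm2 S619L/+ mice Meg3 had 65.6, 44.9, 74.4 and 50.3 CPM with placebo and 161, 154, 189 and 194 with tamoxifen. All 4 tamoxifen mice lay far above every placebo mouse of that genotype. Means were 58.8 ± 13.6 and 175 ± 19.9 CPM, a log2 fold change of 1.57 ± 0.25. By mean the order in the cohort was WT tamoxifen, Dnm2 S619L/+ tamoxifen, WT placebo and Dnm2 S619L/+ placebo. The tamoxifen groups overlap each other, and so do the placebo groups.

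Meg3 in the Bin1 cohort had 60.9, 178, 119 and 118 CPM in WT mice 5 to 8, 54.4, 65.9, 60.3 and 89.8 in Bin1 mck-/- placebo mice and 192, 224, 773 and 441 in Bin1 mck-/- tamoxifen mice. Tamoxifen mice lay above all others of the cohort, mouse 3 far above the rest, and the placebo mutants overlap the WT mice, of which mouse 5 was lowest. Means were 119 ± 47.7, 67.6 ± 15.5 and 407 ± 268 CPM. Log2 fold changes were −0.81 ± 0.45 between the mutants and WT with placebo, and 2.59 ± 0.48 between tamoxifen and placebo in the mutants. The second value stayed between 2.08 and 2.82 when single mice were left out, and the call ended without Bin1 mck-/- placebo mouse 1, 2 or 4, or Bin1 mck-/- tamoxifen mouse 4 (2.50 to 2.76), and when the fit held those groups alone (2.59).

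Rian, next along the domain, had 40.1, 20.7, 26.7 and 97.7 CPM in WT placebo mice and 81.0, 104, 126 and 122 in WT tamoxifen mice. WT placebo mouse 4 lay inside the range of the tamoxifen mice and the other 3 placebo mice lay below it. The log2 fold change was 1.22 ± 0.41, and its call ended without WT placebo mouse 1, 2 or 3, WT tamoxifen mouse 2, 3 or 4, or Dnm2 S619L/+ tamoxifen mouse 1 or 2 (0.97 to 1.24). Without WT placebo mouse 4 it was 1.88 and stayed called. In Dnm2 S619L/+ mice Rian had 31.3, 15.0, 47.7 and 25.1 CPM with placebo and 85.1, 80.8, 92.9 and 123 with tamoxifen. These groups do not overlap, with placebo mouse 3 the highest and tamoxifen mouse 2 the lowest of its group. Rian's log2 fold change was 1.68 ± 0.42, and the call ended without Dnm2 S619L/+ placebo mouse 2 or 4, or Dnm2 S619L/+ tamoxifen mouse 2 or 3 (1.46 to 1.75), and with Xist reads as a covariate (1.51).

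Among WT mice of the Bin1 cohort Rian had 30.9, 93.1, 50.5 and 53.4 CPM, against 21.9, 22.5, 25.6 and 34.3 in Bin1 mck-/- placebo mice and 86.4, 90.7, 423 and 146 in Bin1 mck-/- tamoxifen mice. Tamoxifen mouse 3 lay far above every other mouse, and mice 1 and 2 lay just under WT mouse 6. Between tamoxifen and placebo mutants the log2 fold change was 2.84 ± 0.56. Without tamoxifen mouse 3 it was 2.05 and stayed called. The call ended without Bin1 mck-/- placebo mouse 1, 2, 3 or 4, or Bin1 mck-/- tamoxifen mouse 4 (2.77 to 2.998), when the fit held those groups alone (2.84) and with the replicate number as a block (2.50). Against WT the placebo mutants had a log2 fold change of −1.12 ± 0.54, with the highest mutant just above the lowest WT mouse.

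Mirg, at the far end of the chain, had 3.42, 1.39, 1.502 and 6.47 CPM in WT placebo mice and 6.45, 9.65, 8.47 and 9.76 in WT tamoxifen mice, a log2 fold change of 1.36 ± 0.38. Placebo mouse 4 and tamoxifen mouse 1 had nearly the same level, and the other mice of these groups lay apart. Dnm2 S619L/+ mice had 2.64, 2.16, 2.85 and 1.70 CPM with placebo and 7.88, 6.65, 10.4 and 12.9 with tamoxifen, with no overlap and a log2 fold change of 1.99 ± 0.39. Mice of the Bin1 cohort had 3.94, 5.56, 3.04 and 4.76 CPM in WT, 2.10, 2.03, 2.28 and 1.86 in Bin1 mck-/- placebo and 11.8, 8.70, 38.6 and 14.3 in Bin1 mck-/- tamoxifen mice. All 3 groups lie apart there, the placebo mutants lowest and tightly grouped, the tamoxifen mice highest and led by mouse 3. Mirg had a log2 fold change of 3.11 ± 0.42 with tamoxifen (2.46 and called without tamoxifen mouse 3), and −1.04 ± 0.40 between placebo mutants and WT. The latter was called without Bin1 mck-/- tamoxifen mouse 3 (−1.04), by DESeq2 (−1.07) or when only those groups were fitted (−1.05). In the Dnm2 cohort the order of the means of Mirg was Dnm2 S619L/+ tamoxifen, WT tamoxifen, WT placebo and Dnm2 S619L/+ placebo, with overlap inside each treatment.

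**Figure D2:**
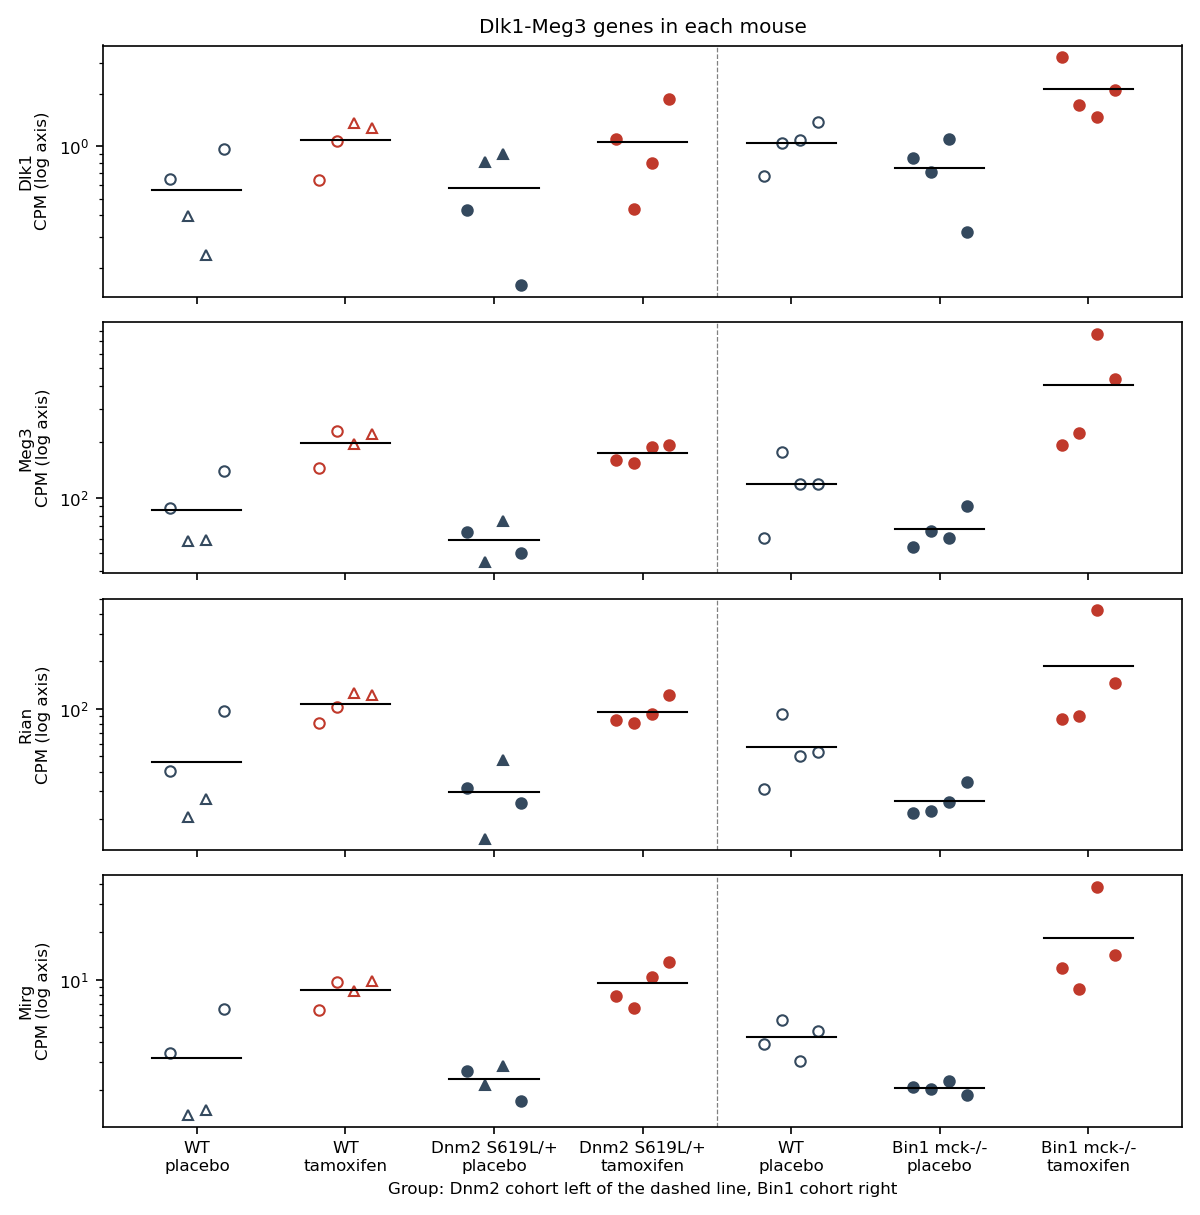
CPM of Dlk1, Meg3, Rian and Mirg in each of 28 mice on log axes, by group, with a dashed line between the Dnm2 cohort (left) and the Bin1 cohort (right). Circles are mice with Xist reads and triangles mice without, open symbols are WT, red symbols received tamoxifen, and bars are means; Meg3 lies at 144 to 773 CPM with tamoxifen and at 44.9 to 178 without.

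Dlk1 (ENSMUSG00000040856), a membrane protein of the Notch ligand family that holds back differentiation of muscle and fat precursors, is read from the paternal copy of the same domain. It was near the limit of detection, with 3 to 75 reads per mouse. Dlk1 had 0.648, 0.396, 0.237 and 0.960 CPM in WT placebo mice, 0.643, 1.08, 1.36 and 1.28 in WT tamoxifen mice, 0.428, 0.815, 0.905 and 0.158 in Dnm2 S619L/+ placebo mice and 1.10, 0.438, 0.802 and 1.88 in Dnm2 S619L/+ tamoxifen mice. All groups of the Dnm2 cohort overlap, and the log2 fold change with tamoxifen was 0.80 ± 0.47 in WT and 0.86 ± 0.48 in Dnm2 S619L/+ mice. Among mice with Xist reads these were 0.10 and 1.66, and without Dnm2 S619L/+ tamoxifen mouse 4 the second was 0.45. In the Bin1 cohort it had 0.671, 1.04, 1.09 and 1.39 CPM in WT, 0.858, 0.708, 1.11 and 0.319 in Bin1 mck-/- placebo and 3.27, 1.73, 1.47 and 2.12 in Bin1 mck-/- tamoxifen mice. The tamoxifen mice lay above every other mouse of that cohort, by little in the case of mouse 3. Their log2 fold change against placebo was 1.45 ± 0.38, not called with all mice, and called without Bin1 mck-/- placebo mouse 3, or Bin1 mck-/- tamoxifen mouse 2 (1.54 to 1.68), by DESeq2 (1.53), with no filter on low counts (1.44) and with the study's filter (1.45). Rtl1 (ENSMUSG00000085925), a gene derived from a retrotransposon and read from the same paternal copy, had at most 0.135 CPM in any mouse, and a difference was not detectable at this depth. The notes do not say whether reads were counted by strand, so the reads of Rtl1 may come from its antisense RNA.

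H19 and Igf2 are neighbours that share enhancers, H19 read from the maternal and Igf2 from the paternal copy. H19 (ENSMUSG00000000031), a noncoding RNA that carries a microRNA, had 3016, 986, 652 and 3057 CPM in WT placebo mice and 883, 834, 1208 and 1287 in WT tamoxifen mice. WT placebo mice split into mice 1 and 4, which were high, and mice 2 and 3, and the 4 tamoxifen mice lay below the high pair. That split follows the Xist reads: the high pair has them and the low pair has not. In WT tamoxifen mice the order was the other way, with 834 and 883 CPM in the pair with Xist reads and 1208 and 1287 in the pair without. The log2 fold change was −0.87 ± 0.43 over all WT mice, and −1.81 when only mice with Xist reads were fitted, where it was called. Without WT placebo mouse 3 it was −1.16 and was called. With Xist reads as a covariate it was −0.60, and without WT placebo mouse 4 −0.56, uncalled in both. Dnm2 S619L/+ mice had 2793, 2239, 1163 and 2915 CPM of H19 with placebo and 2827, 2213, 2229 and 4301 with tamoxifen. Placebo mouse 3, without Xist reads, was lowest and tamoxifen mouse 4 highest, the groups overlap, and the log2 fold change was 0.34 ± 0.43. It was 0.04 among mice with Xist reads and 0.09 without tamoxifen mouse 4. By mean the order was Dnm2 S619L/+ tamoxifen, Dnm2 S619L/+ placebo, WT placebo and WT tamoxifen. Neighbours in this order overlap, while every Dnm2 S619L/+ tamoxifen mouse lay above every WT tamoxifen mouse.

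In the Bin1 cohort, where every mouse had Xist reads, H19 had 2546, 3406, 2561 and 2122 CPM in WT mice, 2851, 3638, 2471 and 4811 in Bin1 mck-/- placebo mice and 2311, 1789, 1445 and 1695 in Bin1 mck-/- tamoxifen mice. Each tamoxifen mouse lay below each placebo mutant, and tamoxifen mouse 1 lay among the WT mice. The means were 2659 ± 538, 3443 ± 1034 and 1809.8 ± 364 CPM, and the log2 fold change with tamoxifen was −0.93 ± 0.21. Its call ended without Bin1 mck-/- placebo mouse 2 or 4, or Bin1 mck-/- tamoxifen mouse 3 or 4 (−0.90 to −0.72), when the fit held those groups alone (−0.93) and with the replicate number as a block (−0.90). The placebo mutants overlap WT mice, with a log2 fold change of 0.37 ± 0.21. It was 0.16 without Bin1 mck-/- placebo mouse 4 and 0.51 without WT mouse 6.

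Igf2 (ENSMUSG00000048583) encodes insulin-like growth factor 2, a growth factor of the embryo that is also made by fusing myoblasts. It was low, with 8 to 262 reads per mouse. WT placebo mice had 2.65, 0.707, 0.711 and 2.79 CPM of Igf2 and WT tamoxifen mice 0.764, 1.29, 1.69 and 2.00. The same WT placebo pair as for H19, mice 1 and 4, was high, and in WT tamoxifen mice the pair without Xist reads was higher. Its log2 fold change was −0.32 ± 0.43 over all WT mice and −1.37 among mice with Xist reads, where it was called. It came closer to 0 with Xist reads as a covariate (−0.09) and without WT placebo mouse 4 (−0.03). Dnm2 S619L/+ mice had 1.31, 0.384, 0.543 and 0.791 CPM with placebo and 2.33, 1.91, 2.69 and 2.93 with tamoxifen. All 4 tamoxifen mice lay above the 4 placebo mice, and the log2 fold change was 1.58 ± 0.46. That call ended without WT tamoxifen mouse 2 or 3, Dnm2 S619L/+ placebo mouse 2, 3 or 4, or Dnm2 S619L/+ tamoxifen mouse 1, 2, 3 or 4 (1.39 to 1.69), and the value was 1.34 with Xist reads as a covariate and 1.19 among mice with Xist reads, uncalled in both. Placebo mutants against WT gave −1.13 ± 0.45, called without WT placebo mouse 2, or Dnm2 S619L/+ placebo mouse 1 (−1.54 to −1.37). Igf2 in the Bin1 cohort had 1.15, 1.84, 2.40 and 0.662 CPM in WT, 1.33, 2.22, 0.348 and 2.53 in Bin1 mck-/- placebo and 1.44, 1.46, 2.02 and 0.475 in Bin1 mck-/- tamoxifen mice. All 3 groups overlap there, with log2 fold changes of 0.09 ± 0.53 for genotype and −0.25 ± 0.53 for tamoxifen. Without Bin1 mck-/- placebo mouse 4 both changed sign (−0.21 and 0.05).

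Cdkn1c and Grb10 are growth inhibitors: Cdkn1c (ENSMUSG00000037664) encodes p57, which blocks cyclin-dependent kinases as muscle precursors leave the cell cycle, and Grb10 (ENSMUSG00000020176) encodes an adaptor that dampens insulin and IGF1 receptor signalling. Cdkn1c had 23.3, 16.0, 16.4 and 25.5 CPM in WT placebo and 15.8, 22.7, 20.8 and 27.1 in WT tamoxifen mice. These groups overlap almost fully, and the log2 fold change was 0.08 ± 0.27. It was −0.33 among mice with Xist reads and −0.04 without WT tamoxifen mouse 4. Dnm2 S619L/+ mice had 18.1, 18.1, 23.1 and 8.62 CPM with placebo and 68.8, 39.2, 37.3 and 40.8 with tamoxifen. Every tamoxifen mouse lay above every other mouse of the Dnm2 cohort, mouse 1 far above the rest, while the other 3 groups overlap. Cdkn1c had a log2 fold change of 1.45 ± 0.28, which was not called when only these groups were fitted (1.49) or among mice with Xist reads (1.81). Cdkn1c in the Bin1 cohort had 16.3, 16.6, 17.7 and 16.3 CPM in WT, 12.7, 22.0, 18.7 and 15.9 in Bin1 mck-/- placebo and 30.0, 33.0, 30.7 and 30.8 in Bin1 mck-/- tamoxifen mice. The 4 tamoxifen mice lay close together and above all 8 others, and the log2 fold change with tamoxifen was 0.84 ± 0.14. Between placebo mutants and WT mice it was 0.05 ± 0.14, with −0.09 without Bin1 mck-/- placebo mouse 2 and 0.16 without Bin1 mck-/- placebo mouse 1.

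Grb10 had 77.4, 44.7, 53.8 and 108 CPM in WT placebo mice and 135, 157, 139.6 and 95.1 in WT tamoxifen mice. Tamoxifen mouse 4 lay below placebo mouse 4, and the others lay apart. The log2 fold change was 0.89 ± 0.26, a call that ended without WT placebo mouse 2 or 3, or WT tamoxifen mouse 2 (0.73 to 0.79). Dnm2 S619L/+ mice had 59.9, 30.7, 47.5 and 43.2 CPM with placebo and 78.0, 116, 106 and 83.2 with tamoxifen, with no overlap. Here the log2 fold change was 1.07 ± 0.26, and the call ended without Dnm2 S619L/+ placebo mouse 2 or 4, or Dnm2 S619L/+ tamoxifen mouse 2 or 3 (0.93 to 1.05), and with Xist reads as a covariate (0.82). Grb10 in the Bin1 cohort had 62.8, 65.1, 63.0 and 53.8 CPM in WT, 34.3, 50.8, 47.3 and 59.6 in Bin1 mck-/- placebo and 56.4, 57.1, 80.1 and 64.5 in Bin1 mck-/- tamoxifen mice. Those groups overlap, and the log2 fold change was 0.43 ± 0.15 with tamoxifen and −0.35 ± 0.15 between genotypes. Without Bin1 mck-/- placebo mouse 1 these were 0.30 and −0.23, and without Bin1 mck-/- placebo mouse 4 they were 0.55 and −0.48.

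Peg3 (ENSMUSG00000002265) encodes a zinc finger protein made in muscle stem cells among other cells. It had 77.4, 31.0, 27.1 and 56.9 CPM in WT placebo mice and 125, 84.4, 81.5 and 120.1 in Dnm2 S619L/+ placebo mice. Every mutant lay above every WT placebo mouse, with the mice that have Xist reads the higher pair in each group. The log2 fold change was 1.09 ± 0.30. That call ended without WT placebo mouse 2, or Dnm2 S619L/+ placebo mouse 4 (0.94 to 1.003), when only these groups were fitted (1.08), with no filter on low counts (1.08) and among mice with Xist reads (0.88). With tamoxifen Peg3 had 77.5, 67.2, 93.9 and 70.0 CPM in WT mice and 160.2, 101, 157 and 208 in Dnm2 S619L/+ mice. Both tamoxifen groups overlap their placebo groups, at log2 fold changes of 0.67 ± 0.29 in WT mice and 0.61 ± 0.29 in the mutants. The WT value was called without WT placebo mouse 1, with Xist reads as a covariate (0.79) and with the replicate block (0.78), and it was 0.12, uncalled, among mice with Xist reads. By mean, the order was Dnm2 S619L/+ tamoxifen, Dnm2 S619L/+ placebo, WT tamoxifen and WT placebo, and each group overlaps the next. In the Bin1 cohort it had 39.1, 54.1, 53.8 and 54.8 CPM in WT, 73.9, 59.3, 35.2 and 90.2 in Bin1 mck-/- placebo and 61.9, 57.0, 112 and 162 in Bin1 mck-/- tamoxifen mice. The placebo mutants overlap both other groups, tamoxifen mice lay above the WT mice with mice 3 and 4 highest, and log2 fold changes were 0.36 ± 0.36 for genotype and 0.60 ± 0.36 for tamoxifen. The first was 0.15 without Bin1 mck-/- placebo mouse 4 and the second 0.25 without Bin1 mck-/- tamoxifen mouse 4.

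**Figure D3:**
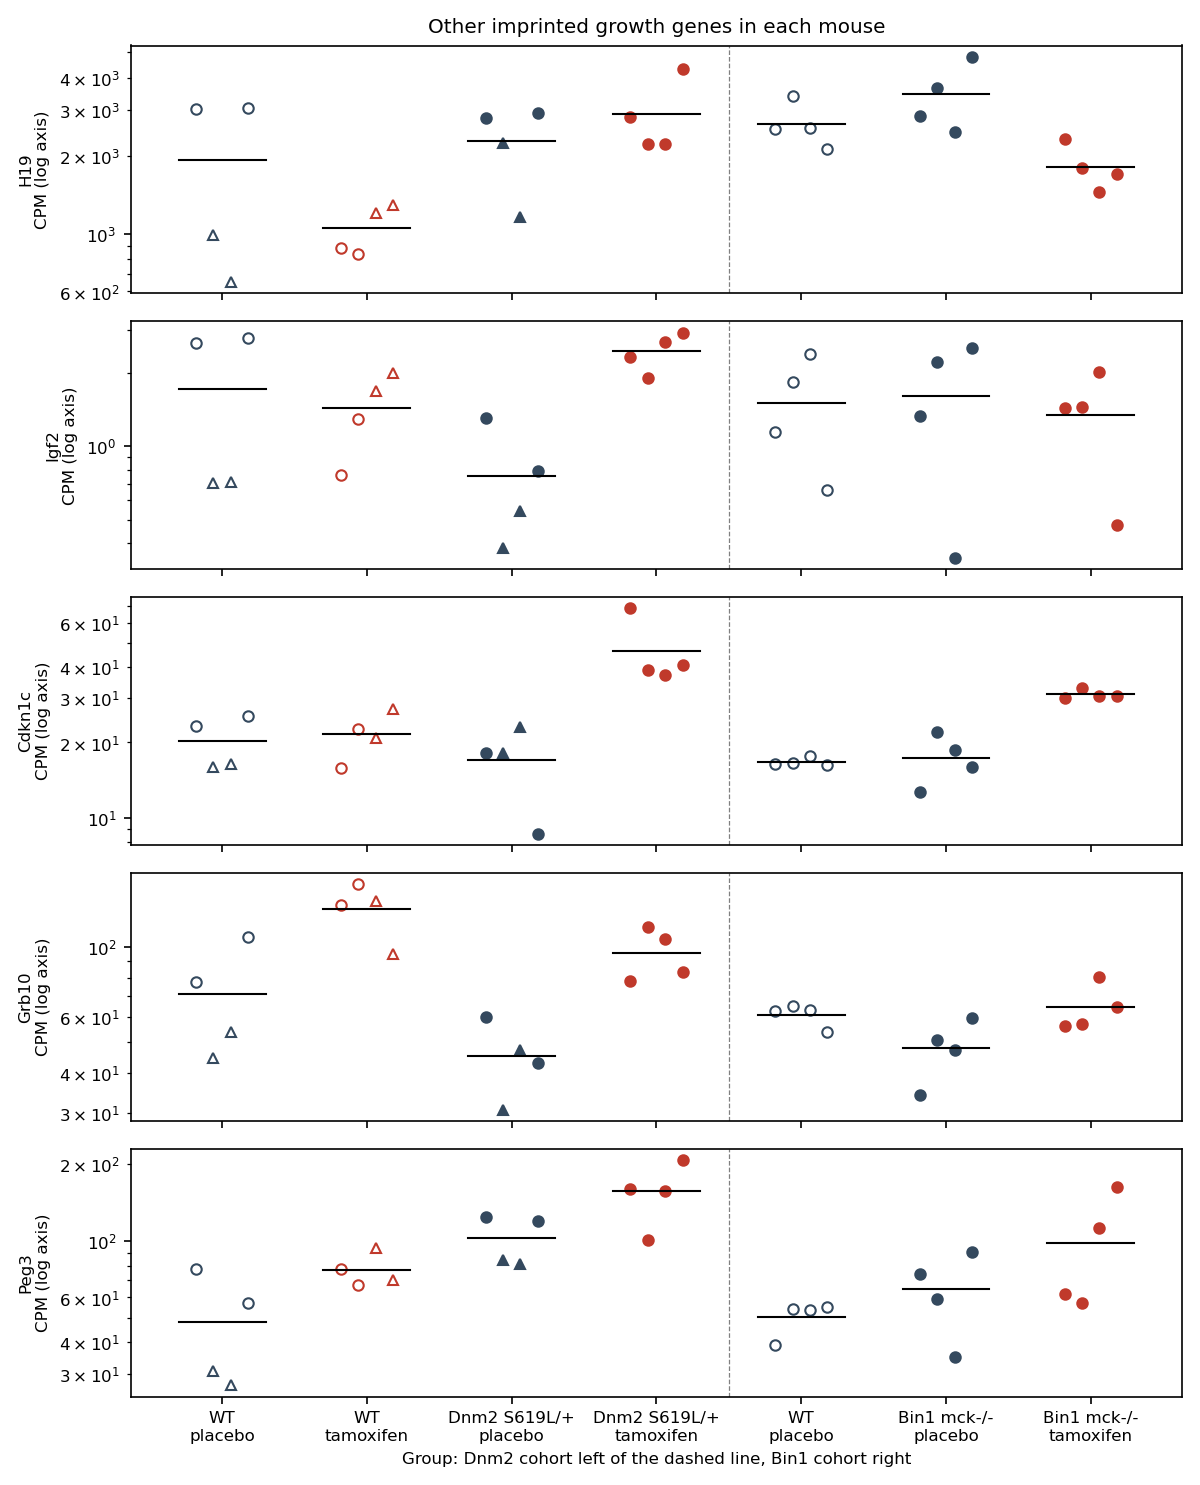
CPM of H19, Igf2, Cdkn1c, Grb10 and Peg3 in each of 28 mice on log axes, by group, with a dashed line between the Dnm2 cohort (left) and the Bin1 cohort (right). Circles are mice with Xist reads and triangles mice without, open symbols are WT, red symbols received tamoxifen, and bars are means; Cdkn1c lies at 37.3 to 68.8 CPM in Dnm2 S619L/+ tamoxifen mice and at 8.62 to 27.1 in the other mice of that cohort.

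The contrast of genotypes with placebo asks how each mutation alone bears on these genes. Between Dnm2 S619L/+ and WT placebo mice the maternal RNAs of the Dlk1-Meg3 domain had log2 fold changes of −0.55 ± 0.25 (Meg3), −0.64 ± 0.41 (Rian) and −0.48 ± 0.38 (Mirg), with overlapping groups and none called. Without WT placebo mouse 4, the highest of its group in all 3, the values were −0.22, 0.02 and 0.08, so the direction for Rian and Mirg over all mice rests on that mouse. Among mice with Xist reads, 2 against 2, they were −0.95, −1.27 and −1.13, none called. Grb10 had −0.64 ± 0.26, H19 0.24 ± 0.43, Cdkn1c −0.27 ± 0.28 and Dlk1 −0.07 ± 0.44, none of them called. Grb10 was called without WT placebo mouse 2 (−0.79) and with Xist reads as a covariate (−0.60), and was −0.37 without WT placebo mouse 4. H19 turned to −0.03 without WT placebo mouse 3, and Dlk1 to 0.24 without WT placebo mouse 4. Cdkn1c was −0.05 without Dnm2 S619L/+ placebo mouse 4 and −0.45 without Dnm2 S619L/+ placebo mouse 3. Among mice with Xist reads Grb10 had −0.83, H19 −0.07, Cdkn1c −0.84 and Dlk1 −1.23, none called.

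The interaction asks whether tamoxifen moves a gene differently in Dnm2 S619L/+ and in WT mice. Its values, on the log2 scale, were 1.91 ± 0.63 for Igf2, 1.37 ± 0.39 for Cdkn1c and 1.22 ± 0.61 for H19. These are the largest of the 9, none was called by edgeR, and Cdkn1c was called by DESeq2 (1.38). In the same order they were 1.43, 1.46 and 0.64 with Xist reads as a covariate and 2.57, 2.14 and 1.85 among mice with Xist reads. For Meg3, Rian and Mirg the interaction was 0.37 ± 0.35, 0.46 ± 0.57 and 0.62 ± 0.53, close to their standard errors. Without WT placebo mouse 4 these were 0.04, −0.20 and 0.06, and among mice with Xist reads 0.89, 1.35 and 1.39. Dlk1, Peg3 and Grb10 had 0.06 ± 0.58, −0.07 ± 0.41 and 0.18 ± 0.36. Their values were 0.32, −0.42 and −0.13 with Xist reads as a covariate and 1.56, 0.26 and 0.24 among mice with Xist reads. Dlk1 was −0.34 without Dnm2 S619L/+ tamoxifen mouse 4, and Grb10 −0.09 without WT placebo mouse 4.

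The 2 tamoxifen contrasts of the Dnm2 cohort share no mice, and WT placebo mice enter the genotype contrast and the WT tamoxifen contrast. When only mice with Xist reads were fitted in WT mice, with 2 mice against 2, Meg3 had a log2 fold change of 0.72, Rian 0.43, Mirg 0.71 and Grb10 0.67, none called. Without WT placebo mouse 4 Meg3 had 1.53, Mirg 1.93 and Grb10 1.16 with tamoxifen in WT mice, all called. In Dnm2 S619L/+ mice the restriction to Xist reads, with 4 mice against 2, gave 1.77 for Rian, 2.10 for Mirg and 0.91 for Grb10, which were not called. With no filter on low counts Rian (1.21) and Grb10 (0.89) lost the call in WT mice, and Igf2 (1.58), Rian (1.68) and Grb10 (1.07) lost it in Dnm2 S619L/+ mice. A fit of those groups alone ended the call of Rian in WT mice (1.24), and those of Igf2 (1.62), Rian (1.71), Cdkn1c (1.49) and Grb10 (1.12) in Dnm2 S619L/+ mice.

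Among the 28 mice, after the mean of each cohort was subtracted from log2 CPM, Meg3 and Rian had a Pearson correlation of 0.98, Meg3 and Mirg 0.95, and Rian and Mirg 0.95. With the mean of each group subtracted instead, so that only differences between mice of one group remain, these were 0.93, 0.78 and 0.84. Dlk1, from the other parental copy of the domain, had 0.64 with Meg3 by cohort and 0.16 by group. H19 and Igf2 had 0.48 and 0.66. Between the domains, H19 and Meg3 had −0.24 and 0.24. Grb10 had 0.72 and 0.56 with Meg3, and Cdkn1c had 0.64 and 0.29. The points share cohorts, and with cohort means subtracted also the differences between groups, so these values describe the set and carry no p.

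Over 14563 genes tested in both cohorts, the 5 outside the members with levels most like those of Meg3 over the 28 mice, by Pearson's r of cohort-centred log2 CPM, were AC109619.1 (0.88), Rhpn2 (0.88), Efhc2 (0.87), Tmem266 (0.87) and Pcx (0.86). None of these 5 is among the 5 most like Meg3 when group means are subtracted, which are Ets2, Pim1, Fras1, Col22a1 and the imprinted gene Mkrn3, at 0.68 to 0.75. The 5 most like H19 were Irak1 (0.82), Mymk (0.78), Gstm7 (0.78), Chrnb1 (0.78) and Trim72 (0.77). Mymk encodes a protein of myoblast fusion and Chrnb1 a subunit of the muscle acetylcholine receptor. With group means subtracted only Trim72 stays among the 5 (0.79), beside Togaram2, Tceal7, St6galnac4 and Stat3, at 0.78 to 0.85.

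Neighbours in the RefSeq annotation of GRCm38.p6, used for order only, were read for both domains. Of all genes 21.9% were called between Dnm2 S619L/+ and WT placebo mice. With tamoxifen 27.7% were called in WT, 8.26% in Dnm2 S619L/+ and 3.13% in Bin1 mck-/- mice. The nearest tested genes before H19 are Nctc1, Mrpl23 and Tnnt3, and beyond Igf2 lie Th, Tspan32 and R74862. Nctc1, a noncoding RNA gene next to H19, had a log2 fold change of 0.95 ± 0.22 with tamoxifen in Bin1 mck-/- mice and passed the test there, where H19 was lower. Nctc1 had −0.71 ± 0.33 and −0.42 ± 0.33 with tamoxifen in WT and Dnm2 S619L/+ mice, neither called. Tnnt3, the fast troponin T gene of muscle fibers, had 0.62 ± 0.17 with tamoxifen in Bin1 mck-/- mice, not called. Tspan32 rose in Dnm2 S619L/+ against WT placebo mice (2.20 ± 0.63), and R74862 rose with tamoxifen in WT mice (0.89 ± 0.25). Gm33148, between H19 and Igf2, and Mrpl23 and Th were not called in any contrast in which they were tested.

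On the near side of Dlk1 lie Begain, Wdr25 and Wars, and beyond Mirg lie Dio3os, Ppp2r5c and Gm19605. Begain, an imprinted gene beside Dlk1, was higher in Dnm2 S619L/+ than in WT placebo mice (1.56 ± 0.37) and with tamoxifen in WT mice (1.22 ± 0.36), called in both. With tamoxifen in Dnm2 S619L/+ and Bin1 mck-/- mice it had 0.02 ± 0.36 and −0.24 ± 0.44, neither called. Dio3os, antisense to the imprinted gene at the far end of the domain, had 0.94 ± 0.42, 0.79 ± 0.44 and 0.93 ± 0.53 with tamoxifen in WT, Dnm2 S619L/+ and Bin1 mck-/- mice, none called. Wars and Gm19605 fell with tamoxifen in WT mice (−0.40 ± 0.11 and −0.98 ± 0.23), Wdr25 was higher in Dnm2 S619L/+ placebo mice (0.49 ± 0.17), and Ppp2r5c was not called in any contrast. No neighbour was called with tamoxifen in all 3 genotypes, and nothing is read from that. Few genes of any kind were called with tamoxifen in Dnm2 S619L/+ (8.26%) and Bin1 mck-/- mice (3.13%), against 27.7% in WT mice.

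The start regions of Meg3, Rian and Mirg are shown because the levels of these genes go together across mice. RefSeq promoters of GRCm38.p6, 250 bases before to 50 after a gene's start, matched 7 of the 10 members. The letters AGGTCA (the core of nuclear receptor sites), GGTCA and TGACC with 3 letters between them (the full estrogen response element), CANNTG (the E-box of muscle transcription factors) and TATAAA were searched on both strands. Capitals mark matches of AGGTCA or TATAAA on either strand. TATAAA has 2 overlapping matches in the first Meg3 start region, and AGGTCA has 1 match in the second, on the reverse strand. CANNTG, which is not in capitals, has 1 match in the second Meg3 start region, 1 in that of Rian and 1 in that of Mirg. The full element has 0 matches in the 4 regions. Of all 32851 promoters of this length, 16.3% hold AGGTCA, 0.0700% the full element, 72.3% CANNTG and 13.6% TATAAA. A match describes letters and no bound factor.
Meg3 chr12:109540746-109541045 (+ strand): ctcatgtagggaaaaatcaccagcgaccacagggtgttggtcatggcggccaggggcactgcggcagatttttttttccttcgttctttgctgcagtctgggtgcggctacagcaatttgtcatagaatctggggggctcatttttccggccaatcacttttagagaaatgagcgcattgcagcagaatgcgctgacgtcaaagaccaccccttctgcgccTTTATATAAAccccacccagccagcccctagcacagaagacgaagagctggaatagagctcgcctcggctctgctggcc
Meg3 chr12:109545148-109545447 (+ strand): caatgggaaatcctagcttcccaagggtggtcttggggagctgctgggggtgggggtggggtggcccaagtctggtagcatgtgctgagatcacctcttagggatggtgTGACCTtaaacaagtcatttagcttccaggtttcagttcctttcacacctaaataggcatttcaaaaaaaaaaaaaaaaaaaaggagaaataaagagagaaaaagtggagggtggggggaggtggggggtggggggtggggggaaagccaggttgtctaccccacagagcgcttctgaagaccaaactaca
Rian chr12:109603695-109603994 (+ strand): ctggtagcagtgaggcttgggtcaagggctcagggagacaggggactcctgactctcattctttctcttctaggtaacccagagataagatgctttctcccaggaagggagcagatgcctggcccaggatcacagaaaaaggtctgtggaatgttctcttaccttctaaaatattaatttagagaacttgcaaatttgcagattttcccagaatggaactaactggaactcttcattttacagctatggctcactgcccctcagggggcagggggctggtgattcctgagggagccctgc
Mirg chr12:109734731-109735030 (+ strand): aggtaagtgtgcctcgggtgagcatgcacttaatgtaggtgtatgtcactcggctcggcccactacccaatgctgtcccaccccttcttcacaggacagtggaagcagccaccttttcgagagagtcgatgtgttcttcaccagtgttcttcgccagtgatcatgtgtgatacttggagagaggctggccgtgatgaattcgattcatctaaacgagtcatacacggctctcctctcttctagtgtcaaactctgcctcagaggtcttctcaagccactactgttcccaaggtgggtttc

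Other imprinted genes give the frame for the members, with 62 listed, 49 tested in the Dnm2 cohort and 46 in the Bin1 cohort. Between Dnm2 S619L/+ and WT placebo mice 12 higher and 6 lower were called (median log2 fold change 0.11, all genes 0.02 with 21.9% called), among them Osbpl5 (0.77 ± 0.13), Pon2 (0.86 ± 0.14) and Peg10 (1.88 ± 0.36). With tamoxifen in WT mice 11 higher and 3 lower were called (median 0.17, all genes −0.04 with 27.7% called). Plagl1, a zinc finger gene of growth control, rose from 3.62 ± 1.27 to 11.02 ± 3.11 CPM (1.56 ± 0.26), Mest from 4.68 ± 1.84 to 18.6 ± 5.84 CPM (1.93 ± 0.38), Peg10 by 1.94 ± 0.36 and Dcn, the matrix proteoglycan decorin, by 1.14 ± 0.25. With tamoxifen in Dnm2 S619L/+ mice 6 higher and 1 lower was called (median −0.01, all genes −0.03 with 8.26% called), with Plagl1 at 1.60 ± 0.26, Mest at 1.92 ± 0.38 and Zim1, a neighbour of Peg3, at 0.86 ± 0.19, and Pon2 lower at −0.60 ± 0.14. Plagl1 and Mest were called with tamoxifen in both genotypes of the Dnm2 cohort. In Dnm2 S619L/+ mice neither was called among mice with Xist reads (1.56 and 1.92), nor Mest in a fit of those groups alone (1.97). Among the genes called with tamoxifen, Rasgrf1 and Slc22a18 in both genotypes pass the filter on low counts only with the tamoxifen mice. In the Bin1 cohort 2 higher and 1 lower was called between genotypes (median 0.11, all genes 0.01 with 2.61% called), with Ndn at 1.01 ± 0.17 and Plagl1 at 1.21 ± 0.30. With tamoxifen 1 higher and 2 lower were called (median 0.03, all genes 0.00 with 3.13% called), with Ndn at −0.82 ± 0.17 and Pon2 at −0.65 ± 0.16. Calcr, the calcitonin receptor gene of quiescent muscle stem cells, went from 0.526 CPM in WT to 0.0241 in Bin1 mck-/- placebo and 0.705 in Bin1 mck-/- tamoxifen mice, called in both contrasts, and from 1.04 in WT to 0.0459 in Dnm2 S619L/+ placebo mice. Those placebo mutants are near 0, so no fold is given. In the interaction 0 of 49 were called by edgeR or DESeq2, and 11 had an unadjusted p under 0.05, as had 2090 of all 15439 genes.

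The IGF axis holds the receptors, binding proteins and ligand that act with Igf2, which Grb10 dampens. Igf2r is also on the list of imprinted genes and counts in both. With tamoxifen in WT mice 4 of 17 were called (3 higher and 1 lower, median 0.31, 27.7% of all genes called). Igf1, the growth factor of adult muscle, rose from 18.7 ± 3.64 to 186 ± 57.9 CPM, a log2 fold change of 3.31 ± 0.61. Igfbp4 and Igfbp3, which bind IGFs outside cells, had 1.68 ± 0.25 and 1.56 ± 0.31, and Insr, the insulin receptor gene, had −0.38 ± 0.13. With tamoxifen in Dnm2 S619L/+ mice 4 of 17 were called, all higher (median 0.20, 8.26% of all genes called), with Igf1 at 3.10 ± 0.61, Igfbp4 at 1.58 ± 0.25, Igfbp2 at 3.09 ± 0.66 and Igfbp3 at 1.10 ± 0.31. None of these 4 was called among mice with Xist reads, a fit of 4 mice against 2, where a lost call does not give the size of a change. In Bin1 mck-/- mice tamoxifen changed 1 of 14 (median −0.06, 3.13% of all genes called), Igf2bp2, an RNA-binding protein gene, at −2.06 ± 0.46. Genotype changed 4 of 17 in the Dnm2 cohort (3 higher and 1 lower, median 0.01, 21.9% of all genes called), with Igfbp6 at 1.36 ± 0.25, Igf2bp2 at 1.89 ± 0.41 and Insr at −0.51 ± 0.13, and Igfbp2 from 0.0562 to 0.886 CPM. Genotype in the Bin1 cohort changed 1 of 14, Igfbp6 at 1.11 ± 0.26 (median 0.05, 2.61% of all genes called). Igfbp6 was thus higher in both mutants.

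Of the other cyclin-dependent kinase inhibitors, the family of Cdkn1c, tamoxifen raised 3 of 6 in WT mice (median 0.97, 27.7% of all genes called). Cdkn1a, encoding p21, rose by 1.52 ± 0.31 and Cdkn2b by 1.35 ± 0.37, and Cdkn2a went from 0.00253 to 0.746 CPM. In Dnm2 S619L/+ mice tamoxifen raised 1 of 6 (median 0.39, 8.26% of all genes called), Cdkn2a, from 0.0494 to 0.792 CPM, uncalled among mice with Xist reads. Cdkn2a passes the filter on low counts only with the tamoxifen mice, where it is high, so it could be tested only as a gene that differs. Cdkn1a was the 1 of 6 that genotype changed in the Dnm2 cohort (median 0.13, 21.9% of all genes called), from 19.6 ± 8.27 to 168 ± 44.8 CPM, a log2 fold change of 3.09 ± 0.33. For 0 of 5 tested in the Bin1 cohort was a change called by genotype (median 0.10, 2.61% of all genes called; 1 at an unadjusted p under 0.05 and 1 by DESeq2) or by tamoxifen (median −0.02, 3.13% of all genes called; 0 and 0).

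Notch receptors, ligands and targets, the pathway of Dlk1, had 5 of 13 called in Dnm2 S619L/+ against WT placebo mice, all lower (median −0.67, 21.9% of all genes called). Jag1 had −0.99 ± 0.22, Notch3 −1.21 ± 0.29, Notch1 −0.72 ± 0.19 and Notch4 −0.67 ± 0.20. With tamoxifen 1 of 13 was higher in Dnm2 S619L/+ mice, Jag1 at 1.06 ± 0.22 (median 0.44, 8.26% of all genes called), and 1 of 13 in WT mice, Notch2 at 1.06 ± 0.23 (median −0.02, 27.7% of all genes called). Jag1 was not called with tamoxifen among mice with Xist reads (1.06). Hes1, a Notch target, was the 1 of 13 that fell with tamoxifen in Bin1 mck-/- mice, at −0.81 ± 0.13 (median −0.15, 3.13% of all genes called). A list on imprint maintenance had 13 genes tested, such as DNA methyltransferases and Ctcf, which binds between H19 and Igf2. It takes in genes that act on DNA methylation in either direction, so not all of them keep imprints. Of the 13, 2 fell in Dnm2 S619L/+ placebo mice (median −0.14, 21.9% of all genes called). They were Ctcf (−0.30 ± 0.08) and Tet3 (−0.42 ± 0.13). With tamoxifen in WT mice 1 of 13 rose, Hells (1.27 ± 0.34), a chromatin remodeller of dividing cells (median 0.10, 27.7% of all genes called). In the other 4 contrasts 0 of 13 were called by edgeR, at medians of 0.17 (tamoxifen in Dnm2 S619L/+ mice), 0.09 (interaction), −0.10 (Bin1 mck-/- against WT) and 0.05 (tamoxifen in Bin1 mck-/- mice). Unadjusted p was under 0.05 there for 0, 2, 6 and 2 genes, and DESeq2 called 0, 0, 1 and 0. Among all genes tested unadjusted p was under 0.05 for 3927, 2090, 2995 and 3068.

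Markers of cells other than muscle fibers moved with tamoxifen in WT mice, where 27.7% of all genes were called. Bone markers had 6 of 7 called, all higher, fibroblast markers 4 of 9, leukocyte markers 5 of 7, tendon markers 4 of 5 and cartilage markers 2 of 4, all of these higher. The list medians, in the same order, were 3.98, 0.18, 1.39, 2.75 and 1.93. Summed bone markers were 43.2, 30.1, 30.8 and 57.6 CPM in WT placebo mice and 702, 931, 297 and 369 in WT tamoxifen mice. Ibsp, the most abundant of them over the cohort, went from 0.393 to 375 CPM and Sp7, a transcription factor of bone-forming cells, from 0.0715 to 22.8. With placebo Sp7 and Ibsp were at 0 in 1 of 4 WT mice each and Bglap in 2 of 4, and Mepe was too low to be tested. Of the genes called, Bglap, Dmp1, Ibsp and Sp7 (4 of 6 bone markers) and both cartilage markers, Acan and Col2a1, pass the filter on low counts only with the tamoxifen mice, so their calls follow from the filter in part. Every tamoxifen mouse lay above every placebo mouse in the bone sum. Summed fibroblast markers were 1189, 978, 736 and 1208 CPM with placebo and 11990.1, 17241, 8751 and 10884 with tamoxifen, with Col3a1 the most abundant (3.59 ± 0.41). Col3a1 (496 to 5960 CPM) and Col1a1 (240 to 5336 CPM) make up most of the tamoxifen sums. Leukocyte markers summed to 84.1, 78.5, 55.5 and 64.2 CPM with placebo and 223, 288, 156 and 153 with tamoxifen, led by Lyz2 (1.30 ± 0.37). Tendon markers, led by Thbs4 (3.09 ± 0.44), summed to 52.2, 46.4, 46.2 and 131 CPM and 514, 819, 347 and 514. Each of these sums lay higher in every tamoxifen mouse than in any placebo mouse. Cartilage markers summed to 3.69, 5.995, 7.67 and 5.02 and 47.6, 56.8, 25.7 and 39.1 CPM, led by Acan, from 0.305 to 33.2, with Matn3 at 0 in 3 of 4 placebo mice. Fiber markers had 1 of 8 called, Myh2 lower (−0.88 ± 0.31), and regeneration markers 3 of 12, all higher, led by Ncam1 (2.29 ± 0.43). The medians were −0.40 for fiber and 0.09 for regeneration markers. Myog and Ncam1 are on the regeneration and the denervation list and count in both. Denervation markers had 4 of 10 called, 2 higher and 2 lower (median −0.36), with Runx1 at 3.27 ± 0.32 and Chrna1 at −1.86 ± 0.34. Lists of endothelial, mural, Schwann, adipocyte and erythroid markers had 0 of 26 called by edgeR (8 at an unadjusted p under 0.05) and 2 by DESeq2, with list medians from −0.91 to 0.89. The part of these cells in the levels of Meg3, Rian, Mirg and Grb10 was not tested.

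With tamoxifen in Dnm2 S619L/+ mice (8.26% of all genes called), bone markers had 6 of 7 called, fibroblast markers 3 of 9, cartilage markers 1 of 4 and regeneration markers 1 of 12, all higher. The list medians, in the same order, were 3.19, 0.04, 0.46 and 0.09. Bone markers summed to 16.3, 12.1, 19.2 and 14.6 CPM with placebo and 182, 409, 534 and 47.7 with tamoxifen, where Ibsp averaged 0.251 and 151 CPM. With placebo Mepe was at 0 in 4 of 4 mice, Bglap in 3 and Sp7 and Ibsp in 1 each. The same 4 bone markers and Acan pass the filter on low counts only with the tamoxifen mice. None of the 19 genes of all lists named for this contrast was called among mice with Xist reads, 4 against 2, where 79 genes in all were called. A lost call there does not by itself mean a smaller change. Plagl1 had 1.56 there and 1.60 with all mice, and Mest had 1.92 in both. Fibroblast markers summed to 1876, 2016, 1581 and 1503 CPM with placebo and 6406, 10656, 13291 and 1973 with tamoxifen, led by Col3a1 (2.24 ± 0.38). By mean Col3a1 (816 to 3860 CPM) and Col1a1 (514 to 3497 CPM) make up most of the fibroblast sum with tamoxifen, 8081 CPM. That sum thus mainly follows these collagen genes. Tamoxifen mouse 4 was the lowest of its group in the bone and the fibroblast sum and the highest in Meg3, Rian and Mirg. Cartilage markers summed to 6.49, 6.76, 10.4 and 7.95 and 16.0, 27.0, 34.2 and 5.58 CPM, with Acan from 0.0564 to 13.2 and at 0 in 2 of 4 placebo mice. Regeneration markers, with Myh8 at 0.97 ± 0.19, summed to 178, 209, 106 and 143 and 193, 134, 131 and 119 CPM, and these overlap. For the other 10 lists, which include fiber, denervation, leukocyte, endothelial, mural, Schwann, adipocyte, tendon and erythroid markers, edgeR called 0 of 69 genes (9 at an unadjusted p under 0.05) and DESeq2 3. The medians of those lists lay between −0.91 and 1.13. The part of bone and fibroblast cells in the levels of the 6 called members was not tested.

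With tamoxifen in Bin1 mck-/- mice (3.13% of all genes called) the bone sum was 29.8, 35.6, 38.7 and 25.7 CPM with placebo and 24.6, 295, 18.6 and 19.8 with tamoxifen, and 0 of 4 tested bone markers were called. Mouse 2 alone was high, and mice 3 and 4, with the highest Meg3 of all 28 mice, had bone sums below those of the placebo mutants. Sp7, Ibsp, Bglap and Mepe were at 0 in 3, 4, 3 and 4 of the 4 placebo mutants and in 2, 2, 2 and 4 of the 4 tamoxifen mutants. Schwann cell markers had 4 of 6 called, all lower, with sums of 136, 90.8, 155 and 141 CPM with placebo and 65.3, 51.6, 52.3 and 54.2 with tamoxifen. Pmp22, the most abundant, had −1.02 ± 0.15 and Mbp, a myelin protein gene, −1.71 ± 0.27, and every tamoxifen mouse had a lower sum than any placebo mouse. Of the 14 genes of all lists named for this contrast 4 stayed called whichever mouse was left out. Denervation markers had 2 of 10 called, both lower, the acetylcholine receptor subunits Chrna1 (−1.19 ± 0.23) and Chrnd (−2.67 ± 0.51), and summed to 149.5, 208, 92.3 and 237 CPM with placebo and 82.2, 99.1, 76.3 and 148 with tamoxifen. Fibroblast markers had 2 of 9 called, Mfap5 (−2.20 ± 0.49) and Cd34 (−0.70 ± 0.18), both lower, and summed to 1665, 2739, 1698 and 4191 and 1661, 5692, 988 and 328 CPM. Adipocyte markers had 1 of 4 called, Plin1, lower at −3.32 ± 0.69, with sums of 216, 205, 258 and 363 and 267, 316, 245 and 241 CPM led by Fabp4. The last 3 sums overlap between the groups. In the other 11 lists, fiber, regeneration, leukocyte, endothelial, mural, tendon, cartilage, bone and erythroid markers among them, edgeR called 0 of 71 genes (23 at an unadjusted p under 0.05) and DESeq2 13. Of all 14841 genes 3068 had such an unadjusted p. The medians of those lists lay between −1.40 and 1.87. The part of Schwann and fibroblast cells in the levels of H19, Meg3, Rian, Mirg and Cdkn1c was not tested.

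Between Dnm2 S619L/+ and WT placebo mice (21.9% of all genes called), denervation markers had 7 of 10 called, all higher, with sums of 71.4, 79.0, 81.9 and 74.7 CPM in WT and 323, 380.0, 163 and 272 in the mutants, which do not overlap. Gadd45a, the most abundant of these, had 1.86 ± 0.23, and Runx1 3.36 ± 0.32. Regeneration markers had 6 of 12 called, 5 higher and 1 lower. Mymx, among those called, passes the filter on low counts only with the tamoxifen mice and was at 0 in 2 of 4 WT placebo mice. Pax7, the gene of muscle stem cells, in which Peg3 is also made, was the lower one (−2.65 ± 0.39), and Myl4 (2.31 ± 0.32) and Myog (2.83 ± 0.42) were higher. Their sums were 70.1, 51.4, 41.7 and 68.5 CPM in WT and 178, 209, 106 and 143 in mutants, led by Ncam1 (2.37 ± 0.43). Tendon markers had 3 of 5 called (Thbs4 1.98 ± 0.43), leukocyte markers 3 of 7 (Lyz2 1.45 ± 0.37), fibroblast markers 2 of 9 (Mfap5 1.53 ± 0.32) and cartilage markers 1 of 4 (Sox9 1.87 ± 0.25), all higher. The list medians, in the same order, were 1.83, 1.27, 0.72 and −0.19. Endothelial markers had 3 of 5 called, lower (Cdh5 −1.08 ± 0.29), mural markers 3 of 5, 1 higher and 2 lower (Rgs5 −1.13 ± 0.18), bone markers 1 of 7, lower (Alpl −1.56 ± 0.41), and erythroid markers 1 of 5, lower (Alas2 −1.36 ± 0.47). Fiber markers had 3 of 8 called, Myh7 higher (3.09 ± 0.84) and Myh2 (−1.80 ± 0.32) and Myh4 (−0.75 ± 0.24) lower. Schwann and adipocyte markers had 0 of 11 called by edgeR (2 at an unadjusted p under 0.05) and 1 by DESeq2. The part of these cells in the level of Peg3 was not tested.

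Between Bin1 mck-/- and WT placebo mice (2.61% of all genes called), leukocyte markers had 5 of 7 called, all higher (Cd68 2.58 ± 0.50), with sums of 60.0, 46.4, 56.2 and 37.6 CPM in WT and 144, 193, 121 and 246 in mutants. Denervation markers had 3 of 10 called, higher, with Myog at 2.26 ± 0.36, and summed to 81.0, 88.3, 72.0 and 77.1 and 149.5, 208, 92.3 and 237 CPM. Neither sum overlaps between the groups. Of the 17 genes of all lists named for this contrast 0 stayed called whichever mouse was left out, and without WT mouse 8 only 18 of all genes were called. Regeneration markers had 3 of 11 called, Pax7 lower (−1.42 ± 0.32) and higher Myog and Ncam1 (1.97 ± 0.41), which are also 2 of the 3 denervation markers called. Adipocyte markers had 2 of 4 called, higher (Cidec 3.54 ± 0.61 and Plin1 3.34 ± 0.68), and 1 each was called higher among fibroblast (Mfap5 2.50 ± 0.50), Schwann (Pmp22 0.59 ± 0.14) and cartilage markers (Sox9 1.94 ± 0.37). Medians were 1.33 for fibroblast, −0.03 for Schwann and −0.91 for cartilage markers (3 tested). In 9 other lists, fiber, endothelial, mural, tendon, bone and erythroid markers among them, edgeR called 0 of 63 genes (23 at an unadjusted p under 0.05) and DESeq2 5. Of all 14841 genes 2995 had such an unadjusted p. In the interaction (0.259% of all genes called) 1 of 10 denervation markers, Runx1 (−2.70 ± 0.42), and 1 of 5 tendon markers, Thbs4 (−3.14 ± 0.59), were called. With 1 mouse left out the call of Runx1 held in 7 of 16 fits and that of Thbs4 in 3 of 16. The 16 other lists had 0 of 171 genes called there by edgeR (43 at an unadjusted p under 0.05) and 3 by DESeq2. Of all 15439 genes 2090 had such an unadjusted p in the interaction.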

How the data were processed

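The authors deposited raw counts in 1 table for each cohort, with Ensembl genes as lines and mice as columns, from strand-specific libraries of polyadenylated RNA. Their notes name bcl2fastq 2.20.0.422, cutadapt 1.10, Bowtie 1.2.2, STAR 2.5.3, HTSeq 0.6.1p1 and the build mm39. The references held were of GRCm38, so coordinates of start regions are of that build, and its RefSeq genes served for the order of neighbours and for promoters. GENCODE names were found for 52083 of the identifiers in each table. Left out were 4 lines of the Bin1 file that name no gene (median 23.9% of a mouse's counts, 22.0% to 30.8%). Groups came from the labels.

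Each cohort was fitted alone with all its mice in edgeR 4.0.16 (R 4.3.3; TMM, default filter on low counts, robust quasi-likelihood test, prior count 2). Called means under 0.05 after Benjamini-Hochberg adjustment. Standard errors are the absolute log2 fold change over the square root of F. Comparisons were genotype with placebo and tamoxifen against placebo in each genotype, and the interaction in the Dnm2 cohort. The tests were tested on simulated data first. The members and all lists (other imprinted genes, IGF axis, cyclin-dependent kinase inhibitors, Notch pathway, imprint maintenance, and markers of muscle fibers, regeneration, denervation, fibroblasts, leukocytes, endothelium, mural cells, Schwann cells, adipocytes, tendon, cartilage, bone and erythroid cells) were chosen with earlier results of these data known. Named are all members, up to 4 called genes of a list in a contrast by smallest adjusted p, the most abundant gene of a marker list by its mean over a cohort (another can be higher in a group), the targeted genes, the 5 genes most like H19 and Meg3, and the 3 nearest tested neighbours on each side of a domain, with Gm33148 between H19 and Igf2.

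Alternatives were DESeq2 1.42.0, no filter on low counts, RLE normalization, library sizes without mitochondrial genes, the study's filter (10 reads in 90% of the mice), the replicate number as a block, a fit of only the groups of a contrast, and each mouse left out. Choices made after the data were seen were Xist reads (CPM over 10) as a covariate and a fit of only mice with Xist reads.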

Additional observations from a re-analysis of the deposited data

Results flagged for a closer look

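In each of 154 sets of 4 mice, a value of a member in 1 group or a marker sum in 1 group, the highest or lowest mouse was compared with the nearest of the others, and 6 values, from 4 mice, lay farther away than the critical share of the range. Chance alone gives this for about 1 in 20 sets. Peg3 had 39.1 CPM in WT mouse 5 of the Bin1 cohort, below the other 3 WT mice (53.8 to 54.8). Cdkn1c had 68.8 CPM in Dnm2 S619L/+ tamoxifen mouse 1, above the other 3 of its group (37.3 to 40.8). Bone markers summed to 295 CPM in Bin1 mck-/- tamoxifen mouse 2, above the other 3 (18.6 to 24.6). In WT placebo mouse 4 of the Dnm2 cohort, mural markers summed to 1085 CPM and tendon markers to 131 CPM, both the highest of their group, and muscle fiber markers to 137357 CPM, the lowest of its group.

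The interaction of genotype and tamoxifen was called in the edgeR fit of all mice for 2 genes of the lists. Runx1 averaged 2.06 CPM in WT placebo, 22.7 in Dnm2 S619L/+ placebo and 21.4 in WT tamoxifen mice. Thbs4 averaged 59.0, 233 and 503 CPM in the same groups. Both were thus already higher in the mutants with placebo. Runx1, a transcription factor raised by denervation, had an interaction of −2.70 on the log2 scale (edgeR adjusted p = 0.0248), with log2 fold changes with tamoxifen of 3.27 ± 0.32 in WT and 0.58 ± 0.29 in Dnm2 S619L/+ mice. Thbs4, a matrix gene of tendon, had −3.14 (edgeR adjusted p = 0.0470), with log2 fold changes with tamoxifen of 3.09 ± 0.44 in WT and −0.06 ± 0.41 in Dnm2 S619L/+ mice. With 1 mouse left out Runx1 was called in 7 of 16 fits (−3.08 to −2.55) and Thbs4 in 3 of 16 (−3.54 to −2.87), and in the other alternatives Runx1 in 6 of 8 and Thbs4 in 3 of 8. Neither was called among mice with Xist reads (−2.65 and −3.30).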

How the results depend on the processing

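Over all alternatives, 1124 of 1216 values of members stayed on their side of the threshold, 73 lost a call and 19 gained one. No call came with a change of sign, and 33 of the 1124, uncalled in both fits, changed sign. Of 792 values with 1 mouse left out 741 stayed on their side, 28 of them with a changed sign, 43 lost a call and 8 gained one. For each change the cause was not tested, beyond that only the groups compared, only mice with Xist reads and a left-out mouse leave fewer mice.

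Members called ranged with 1 mouse left out from 0 to 2 for Dnm2 S619L/+ against WT (main 1), 2 to 4 for tamoxifen in WT (4), 3 to 6 for tamoxifen in Dnm2 S619L/+ (6), 0 to 0 for the interaction (0), 0 to 1 for Bin1 mck-/- against WT (0) and 2 to 6 for tamoxifen in Bin1 mck-/- mice (5). They were 0 without Dnm2 S619L/+ placebo mouse 4 and 2 without WT placebo mouse 2 or Dnm2 S619L/+ placebo mouse 1 for the first, and 2 without WT placebo mouse 2 or WT tamoxifen mouse 2 for the second. They were 3 without Dnm2 S619L/+ placebo mouse 2 or 4 or tamoxifen mouse 2 or 3 for the third, 1 without Bin1 mck-/- tamoxifen mouse 3 for the fifth, and 3 without Bin1 mck-/- placebo mouse 1 and 2 without placebo mouse 2 or 4 or tamoxifen mouse 4 for the last. With DESeq2 they were 1 for the interaction and 1 for Bin1 mck-/- against WT. With no filter on low counts they were 0 for Dnm2 S619L/+ against WT, 2 for tamoxifen in WT and 3 in Dnm2 S619L/+. With only the groups compared they were 0 for Dnm2 S619L/+ against WT, 2 for tamoxifen in Dnm2 S619L/+, 1 for Bin1 mck-/- against WT and 2 for tamoxifen in Bin1 mck-/- mice. With Xist reads as a covariate, chosen after seeing the data, they were 2 for Dnm2 S619L/+ against WT and 3 for tamoxifen in Dnm2 S619L/+, and with only mice with Xist reads, also chosen then, 0, 2 for tamoxifen in WT and 1. The 2 for tamoxifen in WT were H19 (−1.81) and Igf2 (−1.37), both lower. None of the 4 called higher there with all mice stayed called. The replicate block gave 3 for tamoxifen in Bin1 mck-/- mice. Labels state no pairing, and mice with the same number correlated by over 0.1 in 0 to 2 of 4 pairs for any 2 groups that share numbers. WT mice of the Bin1 cohort share no number with the mutants, so no such pair could be formed with them.

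All genes called ranged with 1 mouse left out from 2034 to 3952 for Dnm2 S619L/+ against WT, 2769 to 4825 and 368 to 2562 for tamoxifen in WT and in Dnm2 S619L/+, 1 to 293 for the interaction, 18 to 759 for Bin1 mck-/- against WT and 160 to 1253 for tamoxifen in Bin1 mck-/- mice. In the same order all genes called were 3383, 4273, 1276, 40, 388 and 464 with all mice and 4123, 4921, 1870, 322, 1140 and 1169 with DESeq2. Only the groups compared gave 2932, 4298, 30, 1458 and 122 (no interaction), no filter on low counts 2550, 3561, 814, 34, 501 and 566. Xist reads as a covariate gave 3607, 4653, 515 and 140, only mice with Xist reads 1124, 2231, 79 and 45, and the replicate block 2843, 3834, 849 and 10, and 152 for tamoxifen in Bin1 mck-/- mice. Of the 79, 24 were higher and 55 lower. For the interaction RLE normalization gave 20 and the study's filter 16. Other imprinted genes called, 18, 14, 7, 0, 3 and 3 with all mice, ranged with 1 mouse left out from 10 to 20, 9 to 17, 3 to 9, 0 to 0, 0 to 5 and 1 to 5. They were 6, 7, 0 and 0 among mice with Xist reads, and for tamoxifen in Dnm2 S619L/+ mice 4 with that covariate or the study's filter and 1 with only the groups compared. In the Bin1 cohort they were 9 for genotype with only the groups compared, and 0 for tamoxifen with the replicate block. Of the genes named from the lists, 28 of 41, 33 of 38, 16 of 19, 0 of 2, 0 of 17 and 4 of 14 stayed called whichever mouse was left out, and 22, 23, 0 and 0 of those of the Dnm2 cohort were called among mice with Xist reads. Depth limits Igf2, Dlk1 and Rtl1 most.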
